A study of Mus musculus with 10 samples.

Results

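The 10 genes described here encode the NF-κB transcription factor subunits and the IκB proteins that bind them, and they were chosen by name and family membership. They are the 5 subunit genes Nfkb1, Nfkb2, Rel, Rela and Relb, the 3 genes of the classical IκB inhibitors Nfkbia, Nfkbib and Nfkbie, and the 2 genes of the nuclear IκB proteins Nfkbiz and Bcl3. All 10 were found among the 39488 rows of the count table, of which 29700 were not circular RNAs. RNA was sequenced from thioglycollate-elicited peritoneal macrophages of C57BL/6 mice aged 8 weeks, cells drawn into the peritoneum by an irritant and then cultured. The control group (5 libraries) is labelled untreated. The ox-LDL group (5 libraries) was primed with LPS at 100 ng/ml and then received oxidized low-density lipoprotein (ox-LDL) at 100 µg/ml for 16 h. By these labels the effects of LPS and of ox-LDL cannot be told apart, and wording elsewhere in the study leaves unsettled whether the control cells also saw LPS.

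NF-κB is a family of dimeric transcription factors that drives much of the inflammatory gene expression of macrophages. In resting cells the IκB inhibitors hold the dimers in the cytoplasm, and signals from Toll-like receptors activate the IKK kinase, which marks the inhibitors for degradation and frees the dimers to enter the nucleus. Several of the genes for subunits and inhibitors are themselves known NF-κB targets, so that the pathway feeds back on its own parts. A transcript level therefore measures neither the amount of inhibitor protein nor the activity of NF-κB.

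Because several of these genes are known NF-κB targets, the RefSeq promoter windows were searched on both strands for the 10-base κB consensus. The windows (build GRCm38.p6) ran from 250 bases before to 50 bases after each annotated start. Of the members, 7 have a window, and 5 of those 7 hold a match (Nfkb2, Rel, Nfkbia, Nfkbie and Bcl3), against 5.14% of the 27025 genes with a window and 4.51% of 32851 windows. Rela and Nfkbib have a window without a match. Nfkb1, Relb and Nfkbiz have no window in the table. The 250 bases before the start are printed 5′ to 3′ on the gene's strand for the inhibitor with the highest fold change, the subunit with the highest fold change, a subunit with 2 overlapping matches that did not pass the test, and the 2 members with no match, with the matches in capitals.
Nfkbia, chr12:55492648-55492897, minus strand, GRCm38.p6: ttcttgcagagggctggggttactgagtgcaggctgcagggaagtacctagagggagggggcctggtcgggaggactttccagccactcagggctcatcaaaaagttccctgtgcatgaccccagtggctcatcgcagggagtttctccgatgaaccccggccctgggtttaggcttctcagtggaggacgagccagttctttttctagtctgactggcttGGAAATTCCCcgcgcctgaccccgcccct
Nfkb2, first of 3 windows, chr19:46304487-46304736, plus strand, GRCm38.p6: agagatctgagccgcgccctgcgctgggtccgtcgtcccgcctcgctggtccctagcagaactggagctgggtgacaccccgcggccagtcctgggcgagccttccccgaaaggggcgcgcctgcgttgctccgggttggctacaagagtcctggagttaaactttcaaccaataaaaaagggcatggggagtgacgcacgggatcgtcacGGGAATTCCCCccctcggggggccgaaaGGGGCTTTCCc
Rel, chr11:23770970-23771219, minus strand, GRCm38.p6: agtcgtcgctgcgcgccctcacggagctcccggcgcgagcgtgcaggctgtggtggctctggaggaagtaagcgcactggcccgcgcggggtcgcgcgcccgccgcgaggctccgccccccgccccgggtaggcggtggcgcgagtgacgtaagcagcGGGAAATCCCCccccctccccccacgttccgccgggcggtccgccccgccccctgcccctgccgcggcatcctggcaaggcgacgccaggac
Nfkbib, chr7:28766645-28766894, minus strand, GRCm38.p6: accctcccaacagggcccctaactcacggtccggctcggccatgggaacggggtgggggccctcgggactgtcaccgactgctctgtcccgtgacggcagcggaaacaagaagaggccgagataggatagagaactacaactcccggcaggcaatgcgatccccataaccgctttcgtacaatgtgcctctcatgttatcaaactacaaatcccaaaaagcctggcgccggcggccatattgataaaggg
Rela, chr19:5637291-5637540, plus strand, GRCm38.p6: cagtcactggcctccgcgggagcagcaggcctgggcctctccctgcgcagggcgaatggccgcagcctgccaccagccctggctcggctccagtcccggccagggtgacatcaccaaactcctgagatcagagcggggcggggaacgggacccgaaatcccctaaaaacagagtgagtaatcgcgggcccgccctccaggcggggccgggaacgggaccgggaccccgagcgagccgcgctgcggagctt
The match of Nfkbia begins 29 bases before its start and those of Rel 92 and 91 bases before. In the first window of Nfkb2 overlapping matches begin 39 and 38 bases before the start and a separate one begins 11 bases before it. Nfkbie holds GGGGGATTCC 106 bases before its start, and Bcl3 holds GGGAAGTCCC from base 3 of the transcribed part. These matches are a description of the letters. Of the members with a match, Nfkb2, Nfkbia, Nfkbie and Bcl3 rose and Rel did not pass the test, as given next. Of those with a window and no match, Nfkbib rose and Rela did not pass.

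All 10 members had a higher mean in the ox-LDL group, and 7 of the 10 rose by edgeR's quasi-likelihood test at an adjusted p below 0.01, against 9.40% of the 12654 genes tested that were called higher. No member fell, against 5.35% of genes called lower and 14.7% called in either direction. With a log2 fold change above 2 required as well, 5 of the 10 members were called higher, against 4.78% of genes. The median log2 fold change was 2.13 over the members and 0.10 over all genes tested. The 3 classical inhibitors and the 2 nuclear IκB genes all rose, and 2 of the 5 subunit genes did. The same 7 genes had no overlap between groups in CPM (counts scaled to a common library size by the trimmed mean of M values, TMM), against 11.6% of genes tested that lay higher in the ox-LDL group without overlap. Nfkb2 and Nfkbiz did overlap in unscaled counts and on the deposited per-length scale, treated below as FPKM. There ox-LDL 2 was at 6.54 for Nfkb2 (controls 6.68 to 9.56) and at 1.23 for Nfkbiz (controls 0.69 to 1.25). In bulk RNA a higher level in every cell and a larger number of expressing cells cannot be told apart.

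**Figure D1:**
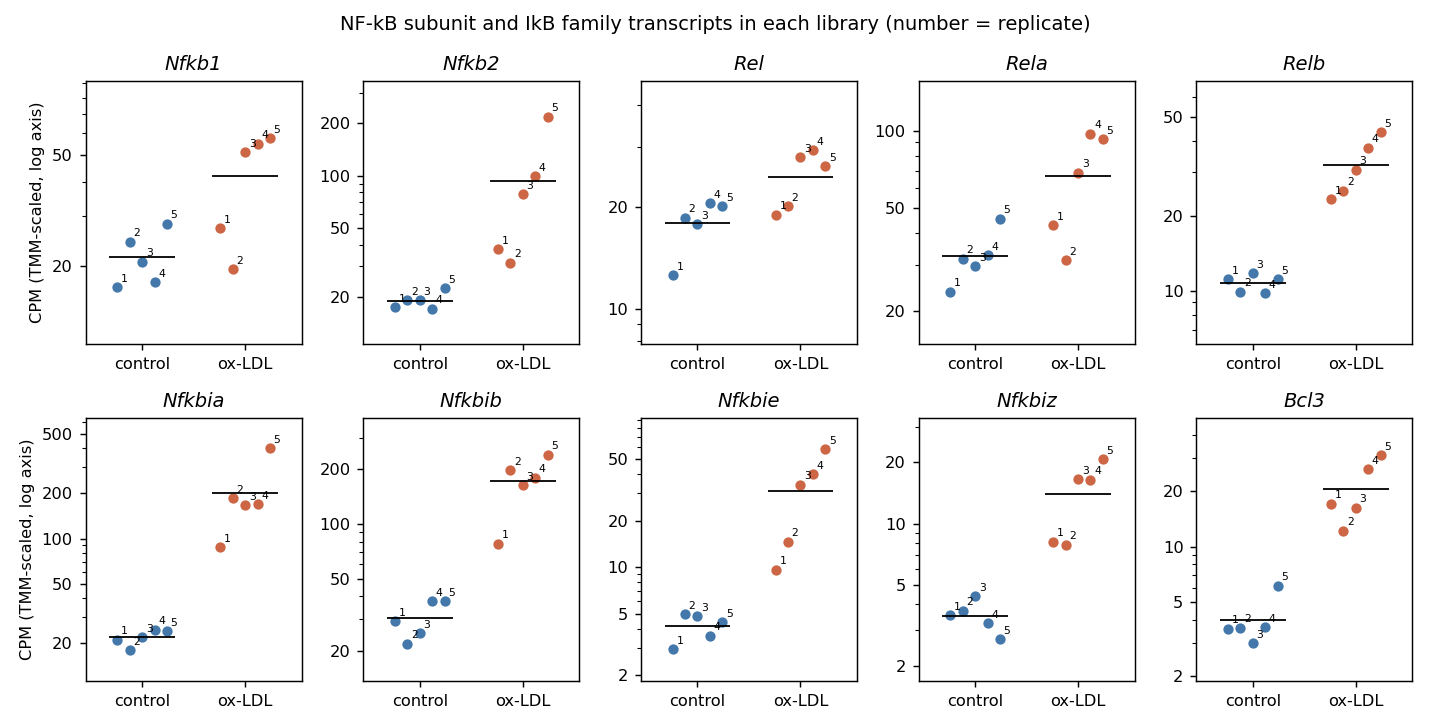
CPM (TMM-scaled, log axis, with a scale of its own in each panel) of each member in the 5 control and 5 ox-LDL libraries; points are libraries numbered by replicate and lines are group means. The groups overlap for Nfkb1, Rel and Rela and are apart for the other 7 genes.

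The libraries held 20094647 to 20687289 estimated counts in the control group and 19257131 to 20358017 in the ox-LDL group. All 8 macrophage markers were tested, with a summed level of 19676 to 46844 CPM in controls and 12493 to 47930 CPM in ox-LDL libraries, most of it Lyz2 (mean 27793 and 17453 CPM). Of these 8, Adgre1 (269 to 1135 CPM, control and ox-LDL means) and Cd14 (86.1 to 406 CPM) were called higher and the other 6 were not called, among them Itgam (304 to 178 CPM). Of 7 neutrophil markers with a row, 1 was tested. Their sum was 5.86 to 14.5 CPM in controls and 11.5 to 154 CPM in ox-LDL libraries, nearly all of it S100a8, which was called higher. Among those too low to test, Cxcr2 lay lower without overlap (0.332 to 0.670 CPM in controls, 0 to 0.087 CPM in ox-LDL libraries). Camp lay higher without overlap (0 to 0.055 and 0.144 to 0.956 CPM), and Mpo was at 3 counts or fewer in every library. The 6 mesothelial and stromal markers summed to 4.66 to 21.98 CPM in controls and 20.7 to 76.0 CPM in ox-LDL libraries. Of 4 tested, Col1a1 and Col1a2 were called higher and Wt1 and Pdgfra were not called. Upk3b, too low to test, lay lower without overlap (0.257 to 0.940 CPM in controls, 0 to 0.239 CPM in ox-LDL libraries), and Msln overlapped. The 4 dendritic cell markers were apart at a low level, 0.77 to 1.04 CPM in controls and 1.87 to 4.62 CPM in ox-LDL libraries, with Clec9a called higher of 2 tested. The 5 eosinophil and mast cell markers with a row summed to 2.78 to 9.77 CPM in controls and 0.439 to 3.58 CPM in ox-LDL libraries, with Siglecf called lower of 3 tested and Prg2 at 3 counts or fewer in every library. B cell and T cell markers summed to at most 3.13 and 2.57 CPM in any library, with none of the 2 tested genes called. Their part in the members' differences was not tested. Relative to the mean of their own group, levels fell with gene length in control 1, control 4 and ox-LDL 2. Spearman's rho of these deviations across 12654 genes was -0.57, -0.46 and -0.64, against 0.05 to 0.52 in the other 7 libraries, a description. The values rank libraries within a group and do not compare the groups. Ox-LDL 2 also had the lowest TMM factor, 0.593. Values without these libraries are given where they matter.

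Among the inhibitors, Nfkbia (chromosome 12, 56590398 to 56593634, minus strand, mm9) encodes IκBα, which strips NF-κB from DNA and returns it to the cytoplasm. Its level was 21.1, 17.97, 21.99, 24.6 and 24.2 CPM in controls 1 to 5 and 87.8, 185, 167, 169 and 400 CPM in ox-LDL libraries 1 to 5. The lowest ox-LDL library lay above every control, and ox-LDL 5 stood highest. The log2 fold change was 3.20 (SE 0.36, n = 5 per group; edgeR's quasi-likelihood test, adjusted p = 8.07e-05), a 9.18-fold difference, the highest of the members. Without ox-LDL 5 and control 5 it was 2.78.

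Nfkbib (chromosome 7, 29543270 to 29552531, minus strand, mm9) encodes IκBβ, an inhibitor known for slower turnover and resynthesis than IκBα. It was at 29.1, 21.8, 25.0, 37.65 and 37.6 CPM in the controls and at 78.1, 198, 164, 180 and 241 CPM in the ox-LDL libraries. The groups did not overlap, and ox-LDL 1 was lowest of its group here and for Nfkbia. This gave a log2 fold change of 2.51 (SE 0.30; edgeR's quasi-likelihood test, adjusted p = 0.000121). Its annotated span overlaps Sirt2, a gene of the other strand, and the strand setting of the counting is not given in the sources used here. Sirt2 was at 127 to 179 CPM in controls and 138 to 210 CPM in ox-LDL libraries (log2 fold change 0.22, adjusted p = 0.420 by the same test).

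Nfkbie (chromosome 17, 45692665 to 45700118, plus strand, mm9) encodes IκBε, which preferentially binds dimers of RelA and c-Rel. It was at 2.93, 4.96, 4.79, 3.61 and 4.39 CPM in controls and 9.61, 14.6, 34.3, 40.0 and 58.1 CPM in ox-LDL libraries. The highest ox-LDL library was 6.04 times the lowest, the widest such spread among the inhibitors. With no overlap between groups, its log2 fold change was 2.92 (SE 0.44; edgeR's quasi-likelihood test, adjusted p = 0.000589).

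The nuclear IκB proteins act on chromatin-bound NF-κB dimers and can activate as well as repress. Nfkbiz (chromosome 16, 55811488 to 55839012, minus strand, mm9) encodes IκBζ, a coactivator of secondary response genes such as Il6. It was the member with the lowest level per length, at 3.54, 3.72, 4.41, 3.24 and 2.69 CPM in controls and 8.13, 7.88, 16.5, 16.5 and 20.7 CPM in ox-LDL libraries, with no overlap. Its log2 fold change was 1.98 (SE 0.30; edgeR's quasi-likelihood test, adjusted p = 0.000549).

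Bcl3 (chromosome 7, 20393811 to 20408119, minus strand, mm9) encodes a partner of p50 and p52 homodimers. It was at 3.60, 3.64, 3.00, 3.66 and 6.12 CPM in controls, of which control 5 stood apart, and at 17.05, 12.2, 16.2, 26.3 and 31.2 CPM in ox-LDL libraries. The groups were apart, at a log2 fold change of 2.36 (SE 0.30; edgeR's quasi-likelihood test, adjusted p = 0.000185). Among the annotated genes on the opposite strand of its span, Gm16174 did not exceed 1.97 CPM in any library.

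Of the subunits, Nfkb2 (chromosome 19, 46379227 to 46386580, plus strand, mm9) encodes p100, the precursor of p52 that also acts as an inhibitor, in the non-canonical arm. Its control values lay close together, at 17.5, 19.2, 19.2, 17.15 and 22.5 CPM. The ox-LDL libraries ranged more widely than for any other member, at 37.8, 31.5, 78.3, 99.5 and 218 CPM, and the highest was 6.93 times the lowest. The log2 fold change was 2.28 (SE 0.46; edgeR's quasi-likelihood test, adjusted p = 0.00345). This call was near the threshold: without control 1, 2, 3 or 4 the adjusted p was 0.0103 to 0.0119 at a log2 fold change of 2.24 to 2.28, and without control 5 and ox-LDL 5 the log2 fold change was 1.72 (adjusted p = 0.00958 by the same test). The last bases of Nfkb2 overlap Psd on the opposite strand, which was at 0.498 to 0.770 CPM in controls and 1.13 to 5.02 CPM in ox-LDL libraries and was itself called higher (log2 fold change 1.92, adjusted p = 0.00715 by the same test). Without the strand, reads over the shared bases cannot be told apart.

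Relb (chromosome 7, 20191566 to 20214787, minus strand, mm9) encodes RelB, the usual partner of p52. It was at 11.1, 9.93, 11.8, 9.79 and 11.2 CPM in controls, the tightest group of any member (CV 7.98%), and at 23.3, 25.3, 30.6, 37.5 and 43.4 CPM in ox-LDL libraries. The groups were apart, with a log2 fold change of 1.57 (SE 0.20; edgeR's quasi-likelihood test, adjusted p = 0.000186).

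The other three subunits make up the dimers of the canonical arm, and none passed the test over all 10 libraries. Rela (chromosome 19, 5637483 to 5648130, plus strand, mm9) encodes RelA (p65), the main activating subunit. It was at 23.7, 31.8, 29.8, 32.8 and 45.5 CPM in controls and 42.9, 31.4, 68.8, 97.45 and 92.7 CPM in ox-LDL libraries. Ox-LDL 1 and 2 lay within the control range and ox-LDL 3, 4 and 5 above it. The log2 fold change was 1.03 (SE 0.31; edgeR's quasi-likelihood test, adjusted p = 0.0290).

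Nfkb1 (chromosome 3, 135247619 to 135354511, minus strand, mm9) encodes p105, the precursor of p50. It was at 16.7, 24.4, 20.6, 17.4 and 28.3 CPM in controls and 27.2, 19.4, 51.0, 54.8 and 57.4 CPM in ox-LDL libraries, again with ox-LDL 1 and 2 inside the control range. Its log2 fold change was 0.97 (SE 0.30; edgeR's quasi-likelihood test, adjusted p = 0.0330). Leaving out ox-LDL 2 alone brought both past the threshold, Rela at 1.17 (adjusted p = 0.00311) and Nfkb1 at 1.11 (adjusted p = 0.00283).

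Rel (chromosome 11, 23641514 to 23670970, minus strand, mm9) encodes c-Rel, a subunit found mainly in blood cells. It was at 12.6, 18.5, 17.7, 20.45 and 20.1 CPM in controls and 18.9, 20.04, 27.95, 29.3 and 26.3 CPM in ox-LDL libraries. Its log2 fold change of 0.46 (SE 0.19; edgeR's quasi-likelihood test, adjusted p = 0.104) was the lowest of the members and passed under no alternative tried.

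**Figure D2:**
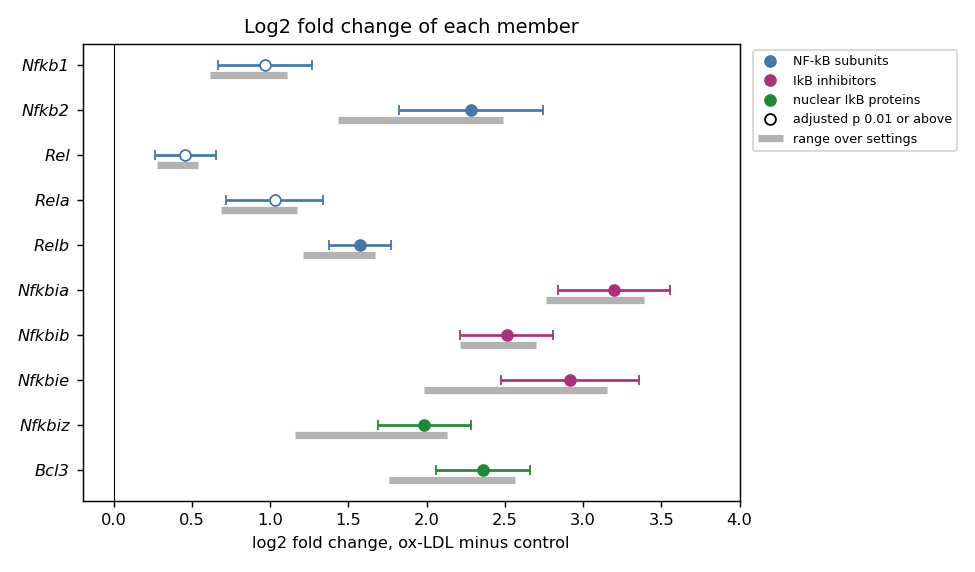
Log2 fold change (ox-LDL minus control) of each member with its SE as the error bar, coloured by role; open circles have an adjusted p of 0.01 or above, and grey bars span the values under all settings tried. The inhibitors lie between 2.51 and 3.20, and every grey bar lies above 0.

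Libraries of the ox-LDL group differed in how far the members moved together. Relative to the control mean on the log2 CPM scale, the median member was 1.04 higher in ox-LDL 1, 1.07 in ox-LDL 2, 1.89 in ox-LDL 3, 2.14 in ox-LDL 4 and 2.50 in ox-LDL 5. In ox-LDL 1 and ox-LDL 2, 7 members lay above the highest control, and in each of the other three libraries all 10 did. The share of all genes that did so in a single library was not computed, so these counts have no background and are a description. In ox-LDL 2 the difference ran from -0.11 for Nfkb1 to 3.03 for Nfkbia. Relative to its group mean, that library's levels fall with gene length. Nfkbib and Nfkbia are the members with the shortest implied lengths (1219 to 1439 bases) while Nfkb1 is among the longest (3819 to 3930 bases). A length trend was also fitted for each library on deviations from the mean of all 10 libraries, so that its removal takes out length differences between the groups as well. With it removed, the log2 fold changes were 3.31 for Nfkbia, 2.64 for Nfkbib, 1.03 for Rela, 0.85 for Nfkb1 and 0.36 for Rel. The part of gene length in the spread within ox-LDL 2 was not tested.

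Levels of different genes were compared on the deposited per-length scale, treated here as FPKM. In controls the order ran from Nfkbib (25.8 ± 6.06 FPKM, SD, n = 5) and Nfkbia (16.2 ± 2.44) through Rela (14.2 ± 4.38), Nfkb2 (7.86 ± 1.13), Nfkb1 (5.90 ± 1.78), Relb (5.61 ± 0.85) and Rel (4.72 ± 1.09) to Bcl3 (2.53 ± 0.91), Nfkbie (1.90 ± 0.52) and Nfkbiz (0.93 ± 0.23). Between libraries the ranges of neighbours overlapped except for Nfkbib over Nfkbia. Within a library, however, the higher of 2 neighbours was higher in all 5 controls for Nfkbib over Nfkbia, Rela over Nfkb2, Nfkb2 over Nfkb1, Relb over Rel, Rel over Bcl3 and Nfkbie over Nfkbiz, in 4 for Bcl3 over Nfkbie, in 3 for Nfkbia over Rela and in 2 for Nfkb1 over Relb. In the ox-LDL group Nfkbib (126.4 ± 40.0 FPKM) and Nfkbia (125.96 ± 64.1) led and did not overlap the next gene. Nfkbib was the higher of the pair in 4 of the 5 ox-LDL libraries, and Nfkbia in ox-LDL 5 (231 against 163 FPKM). Below them were Nfkb2 (28.9 ± 20.8), Rela (26.1 ± 13.3), Relb (14.9 ± 4.97), Nfkbie (12.5 ± 7.73), Bcl3 (11.7 ± 4.99), Nfkb1 (10.5 ± 5.00), Rel (6.05 ± 1.95) and Nfkbiz (3.57 ± 1.62), each overlapping its neighbour in range; within a library Rel lay above Nfkbiz in all 5 and Nfkb2 above Rela in 1, ox-LDL 5.

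Summed by role, the 3 inhibitors had 35.7, 36.7, 43.9, 47.6 and 55.9 FPKM in controls and 152, 172, 280, 307 and 414 FPKM in ox-LDL libraries. The 5 subunits summed to 27.2, 40.3, 40.2, 33.2 and 50.4 FPKM in controls and 62.2, 27.3, 94.0, 122 and 127 FPKM in ox-LDL libraries. The inhibitor sum was thus apart between groups, while the subunit sum of ox-LDL 2 lay within the control range. Inhibitor transcripts per subunit transcript were 0.909 to 1.44 in controls and 2.44 to 6.30 in ox-LDL libraries. The value of 6.30 was that of ox-LDL 2, and the next highest was 3.25. Among controls the highest were control 4 (1.44) and control 1 (1.31). With ox-LDL 2 these are the libraries whose levels fell with gene length relative to their group mean. The part of gene length in these values was not tested. This sum is given as a description, with no test.

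**Figure D3:**
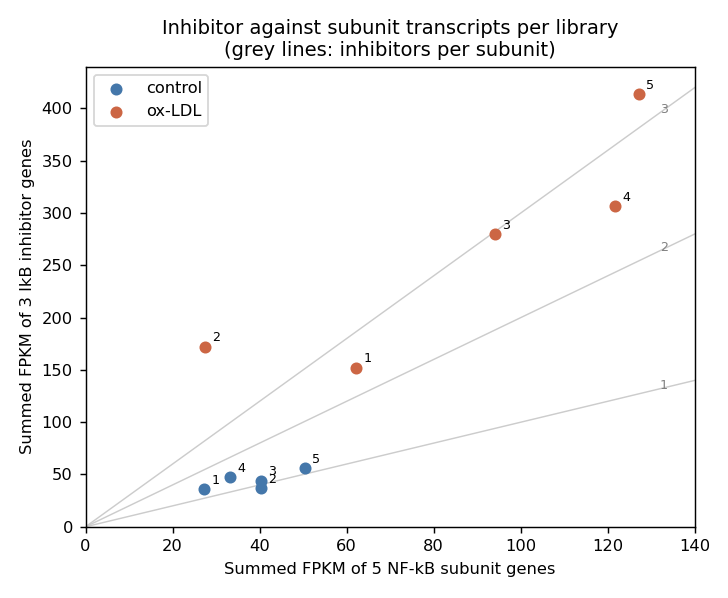
Summed FPKM of the 3 IκB inhibitor genes (vertical) against that of the 5 NF-κB subunit genes (horizontal), 1 point per library numbered by replicate; grey lines mark 1, 2 and 3 inhibitor transcripts per subunit transcript. The controls lie near the lowest line and all ox-LDL libraries above the line at 2.

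Ratios of counts within a library do not depend on the scaling between libraries. Between members, 6 ratios were compared by a two-sided exact permutation test over 252 arrangements, adjusted over the 6. These ratios were chosen with earlier results of these data known, and the p-values do not cover that choice. The first was Nfkb2 over Nfkb1, the precursors of the non-canonical and canonical arms. Its log2 was 0.07, -0.34, -0.10, -0.02 and -0.33 in controls and 0.47, 0.70, 0.62, 0.86 and 1.93 in ox-LDL libraries. The groups did not overlap, and the difference was 1.06 (exact permutation p = 0.00794, adjusted p = 0.0238). Nfkbia over Nfkbib was -0.46, -0.28, -0.19, -0.61 and -0.64 in controls and 0.17, -0.09, 0.03, -0.09 and 0.73 in ox-LDL libraries. It too was apart, by 0.58 (exact permutation p = 0.00794, adjusted p = 0.0238), and without control 5 its adjusted p was 0.0635.

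The other ratios overlapped between groups. Relb over Rela differed by 0.61 (exact permutation p = 0.0556, adjusted p = 0.111) and Rel over Rela by -0.47 (exact permutation p = 0.0952, adjusted p = 0.143). Without control 1, Relb over Rela differed by 0.73 (exact permutation, adjusted p = 0.0476), and without ox-LDL 2, Rel over Rela differed by -0.65 (exact permutation, adjusted p = 0.0317). Nfkbiz over Bcl3 differed by -0.43 (exact permutation p = 0.246, adjusted p = 0.295) and Nfkbie over Nfkbib by 0.20 (exact permutation p = 0.667, adjusted p = 0.667).

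**Figure D4:**
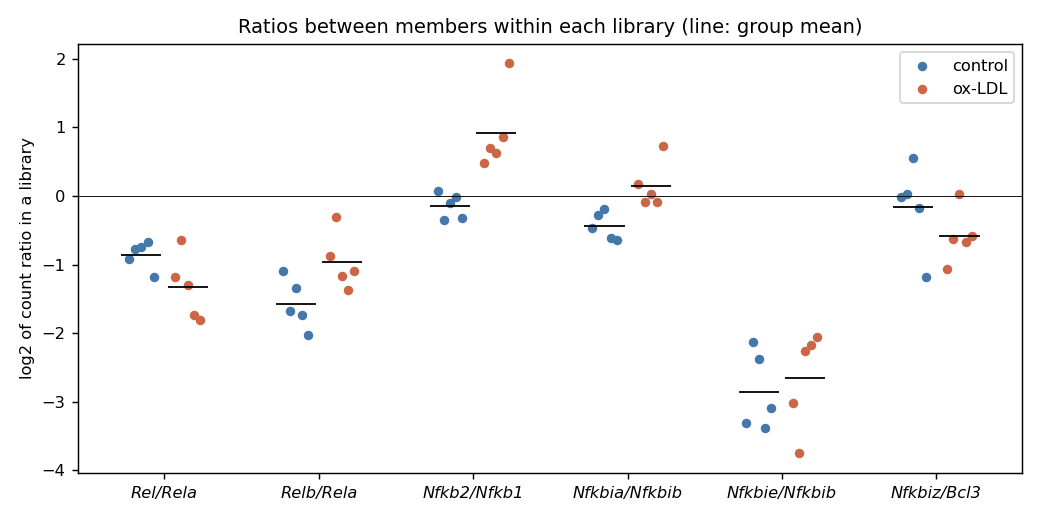
Log2 of the count ratio of 2 members within each library, for 6 ratios; points are libraries and lines are group means. The groups are apart for Nfkb2/Nfkb1 and Nfkbia/Nfkbib, and overlap for the other 4 ratios.

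Dividing counts by FPKM and by the library total gives the transcript length implied by the deposited values, which can differ between libraries when the mix of assembled isoforms does. For Nfkb2 it was 2358, 2744, 2714, 2365 and 2656 bases in controls and 2900, 2813, 3001, 3099 and 2960 bases in ox-LDL libraries, longer in every ox-LDL library. Of 6900 genes with at least 100 counts in every library, 1.64% were longer in the ox-LDL group with no overlap. Nfkb2 was singled out after its values were seen, so this is a description. On the log2(FPKM + 1) scale, the median of all genes was 0.23 lower than in the count fit (a shift of -0.23). The log2 fold change of Nfkb2 was 1.44 there (limma, adjusted p = 0.0311), below that of the count fit. Those of Relb (1.21) and Nfkb1 (0.61), genes whose implied lengths overlapped between groups, were also positive and below their count fit. The Nfkb2 share of summed subunit FPKM overlapped between groups, at 19.0 to 24.6% in controls and 23.9 to 47.8% in ox-LDL libraries. Nfkbiz, at 62 to 103 counts in controls, had 3827 to 4407 bases in controls and 3629 to 3795 bases in ox-LDL libraries, where 2.06% of the 6900 genes were shorter with no overlap; its counts were too low for it to be among them. The other 8 members overlapped.

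Genes whose log2 CPM, relative to the control mean, ran closest to that of a member were ranked by the root mean square difference over the 10 libraries, among 7637 genes. Nearest to Nfkbia were Ier3 (0.188), Irf8 (0.250) and Tma16 (0.285), and its nearest fellow member, Nfkbib, was at place 21. Nearest to Nfkb2 were Slc2a1 (0.183), Ak4 (0.231) and Pvr (0.262). Nearest to Rela were Wbp2 (0.145), Nfkb1 (0.160) and Rest (0.185), so that the 2 canonical partners were close to each other in profile. Nearest to Nfkbib were Cebpb (0.263), Slfn2 (0.289) and Maff (0.292).

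Genes on either side of the members in the pathway were taken from lists and are read against the same 9.40% called higher and 5.35% called lower. Of 27 IKK and upstream signaling genes, 5 rose and none fell by edgeR's quasi-likelihood test, with a median log2 fold change of 0.28. At an unadjusted p below 0.05, 13 were higher and 0 lower. The share of all genes at that cutoff is not given here, so these 2 counts have no background. DESeq2 and limma-voom also called 0 lower. Those that rose were Traf2 (1.78, SE 0.28), an adaptor of TNF receptors, the kinase gene Tbk1 (1.007, SE 0.17), Rnf31 (1.38, SE 0.28), the catalytic part of the linear ubiquitin ligase, Ikbkg (1.44, SE 0.31), the regulatory subunit of IKK, and Traf6 (1.14, SE 0.27), the adaptor of Toll-like and IL-1 receptors. Ripk1 (-0.01) and Tradd (-0.06) had the highest p. The catalytic IKK genes, named here for their role after their values were seen, were at 0.40 (Chuk) and 0.33 (Ikbkb) and did not pass. The count of 5 moved between 2 and 8 when single libraries were left out, with 2 without control 1, control 4 or ox-LDL 4, 3 without control 2, control 3, ox-LDL 3 or ox-LDL 5, and 8 without ox-LDL 2.

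In the non-canonical arm, which processes p100 to p52 on signals from CD40 and related receptors, 3 of 10 genes tested rose and 1 fell (median log2 fold change 0.67), and Lta and Ltb were too low to test. Cd40 was at 3.55 to 5.95 CPM in controls and 40.3 to 352 CPM in ox-LDL libraries, a log2 fold change of 5.07 (SE 0.59). Birc3 (2.37, SE 0.20) and Traf3 (1.54, SE 0.27) encode parts of the complex that degrades the kinase NIK and rose as well. The gene of NIK itself, Map3k14, named after its values were seen, was at 0.61 and did not pass. Tnfrsf11a, the receptor RANK, fell by 1.23 on the log2 scale (SE 0.23), while Ltbr (-0.09) and Tnfsf13b (-0.47) had the highest p. Without ox-LDL 2 the count that rose was 5.

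Of 16 tested brakes on NF-κB other than the IκB genes, 7 rose and 2 fell (median log2 fold change 0.64), and Sigirr was too low to test. The smallest p were those of Tnfaip3 (2.28, SE 0.30), which encodes the ubiquitin-editing enzyme A20, Tnip3 (1.64, SE 0.23), an A20-binding protein, N4bp1 (1.49, SE 0.22) and Zc3h12a (1.99, SE 0.33), the RNase Regnase-1. The deubiquitinase gene Otulin fell by 0.82 and Pdlim2, whose product promotes degradation of nuclear RelA, fell by 1.31 on the log2 scale. Commd1 (0.30) and Cyld (0.22) had the highest p. The count of 7 was 4 without any one of controls 1 to 4, ox-LDL 3 or ox-LDL 4, and 2 by limma on log2(FPKM + 1). Of the 2 other IκB-like genes 0 passed by edgeR, DESeq2 or limma-voom. Both were below 0.05 in unadjusted p, again with no background share given. Nfkbid was at -0.93 (edgeR's quasi-likelihood test, adjusted p = 0.0400) and Nfkbil1 at 0.46 (adjusted p = 0.0716 by the same test).

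Of 36 tested genes known as NF-κB targets, 25 rose and 1 fell, with a median log2 fold change of 4.03. Some targets were near the floor in controls, such as Il6 (at most 0.130 CPM) and Il12b (median 0.0515 CPM). Such genes passed the filter only through the ox-LDL libraries, so their calls and fold changes depend in part on it. The count of 25 and the median of 4.03 include them and are not set against those of the members. With 10 counts required in every library, 18 targets rose, where 919 of all 10625 genes tested were called higher. The number of targets tested under that filter is not given here. Il23a, Csf2 and Csf3 were too low to test. Lcn2, an iron-carrier binding protein, was at 0.60 to 3.34 CPM in controls and 76.2 to 245 CPM in ox-LDL libraries (log2 fold change 6.50, SE 0.58). Irf1, a transcription factor gene, was at 18.4 to 31.7 CPM and 263 to 1168 CPM (4.70, SE 0.41). The survival gene Cflar (2.75, SE 0.25) and the adaptor gene Traf1 (4.96, SE 0.51) followed by p. The costimulatory gene Cd80 fell by 1.20 on the log2 scale (SE 0.29), and Bcl2l1 (0.04) and Cd83 (-0.34) had the highest p.

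**Figure D5:**
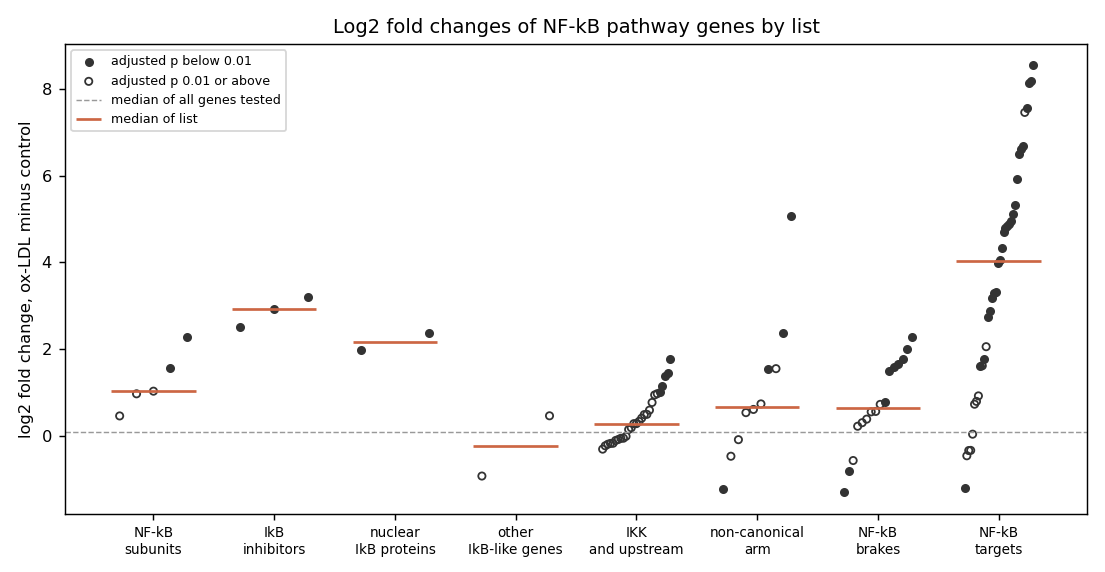
Log2 fold change (ox-LDL minus control) of every tested gene in the member groups and pathway lists; filled points have an adjusted p below 0.01, open points do not, orange lines are list medians and the dashed line is the median of all genes tested. The list medians are 2.92 for the inhibitors, 1.03 for the subunits, 0.28 for IKK and upstream genes and 4.03 for targets. Some targets passed the filter only through the ox-LDL libraries, and their median includes them.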

How the data were processed

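Bulk RNA-seq of 10 libraries was used, grouped by the sample labels. According to the submitters' processing notes, the authors used FastQC, aligned reads to mm9 with HISAT2 2.0.5, and used SAMtools 1.4 and StringTie. They deposited estimated counts per gene (13.6% not whole; the counting step and strand use are not given in the sources used here) and second values without a named unit, treated as deposited FPKM because each equals the counts divided by the total and a length, constant within 5% for 57.7% of 6900 genes.

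Counts were rounded, circular RNA rows (9788) left out, genes filtered with filterByExpr, scaled by TMM and tested over all 12654 genes with edgeR 4.0.16 (quasi-likelihood, robust) in R 4.3.3, with Benjamini-Hochberg adjustment; a call is an adjusted p below 0.01. SE came from the fold change and F statistic. DESeq2 1.42.0 and limma 3.58.1 were alternatives. Ratios added 0.5 counts. Nearest genes needed a mean of at least 10 CPM over the 10 libraries. Labels give biological replicates, not animals per library. The tests were checked on simulated counts. Coordinates are those of the mm9 annotation, and promoter sequences those of RefSeq GRCm38.p6.

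The members, lists, ratios and tests were chosen with earlier results of these data known. Beyond all members, the genes named are, per pathway list, the 4 called with the smallest p, every gene called lower and the 2 with the highest p, and the 3 nearest genes of 4 members; exceptions are named as such. Traf6 was added because the count was 5.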

Additional observations from a re-analysis of the deposited data

Results flagged for a closer look

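Of 32 groups of 5 libraries examined for a sample far from the others, 2 had one, where about 1.6 would by chance. For Bcl3 in the control group, the gap of control 5 (6.12 CPM) to the next library was 0.789 of the group's range, above the limit of 0.71. For the log2 ratio of Nfkb2 over Nfkb1 in the ox-LDL group, the gap of ox-LDL 5 (1.93) to the next library was 0.734 of the range. Without control 5 and ox-LDL 5 the Bcl3 log2 fold change was 2.32 against 2.36 with them.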

How the results depend on the processing

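The log2 fold change of each of the 10 members was positive under all settings tried. The number of members called higher (7) was 6 to 9 when 1 library was left out. It was 6 with the 7 libraries whose levels do not fall with length relative to their group mean. Without control 5 and ox-LDL 5 it was 7 (both sets chosen after seeing the data). It was 3 by limma on log2(FPKM + 1) with no filter, where Nfkb2, Relb, Nfkbie and Nfkbiz were lost (adjusted p 0.0134 to 0.0998). Nfkb2 was also lost with those 7 libraries alone (adjusted p = 0.0130), with no filter on counts (adjusted p = 0.0128) and by limma on log2(FPKM + 0.1) (adjusted p = 0.0342). Rela passed with DESeq2 (adjusted p = 0.00978). It also passed with the replicate block and the length trend removed together (edgeR's quasi-likelihood test, adjusted p = 0.00491), where 8 members were called higher. Genes called in all, in either direction (1866), were 3009 with DESeq2, 1243 by limma on log2(FPKM + 0.1) and 1027 on log2(FPKM + 1) with no filter. They were 2865 with the length trend removed and 3365 at an adjusted p below 0.05. With an absolute log2 fold change above 2 required as well they were 849, and with 1 library left out 1262 to 3257 (the highest without ox-LDL 2).

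Counts of list genes called higher moved as follows. For IKK and upstream genes (5) they were 8 with DESeq2 and at an adjusted p below 0.05, 1 with library size alone and in each limma fit on FPKM, 3 without control 5 and ox-LDL 5, 0 with a log2 fold change above 2, and 2 to 8 with 1 library left out. For the non-canonical arm (3) they were 5 with DESeq2 and at an adjusted p below 0.05, and 3 to 5 with 1 library left out. For the brakes (7) they were 3 with library size alone, 2 in each limma fit on FPKM, 4 in both sets of fewer libraries, 1 with a log2 fold change above 2, and 4 to 9 with 1 library left out. For the other IκB-like genes (0) it was 1 with the length trend removed. For the targets (25) it was 22 to 26 with 1 library left out and 18 with 10 counts required in every library.

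With 1 library left out, the log2 ratio differences ranged from 0.81 to 1.17 (Nfkb2/Nfkb1), 0.44 to 0.65 (Nfkbia/Nfkbib), 0.44 to 0.73 (Relb/Rela) and -0.65 to -0.35 (Rel/Rela). Relb/Rela passed with the length trend removed (difference 0.62, exact permutation, adjusted p = 0.0476).

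Same-numbered deviations correlated at 0.03, -0.24, 0.42, -0.26 and 0.40, and only control 5 correlated best with its own number. The deviations also hold each library's length trend, so this check cannot decide whether the libraries were prepared in pairs. With the replicate block 1434 genes, 7 members and 3 IKK and upstream genes were called. Sign flips within replicate numbers (the block for ratios) cannot go below p = 0.0625, and gave an adjusted p of 0.125 (exact permutation) for the differences of 1.06 (Nfkb2/Nfkb1) and 0.58 (Nfkbia/Nfkbib).

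The median log2 fold change of all genes shifted by -0.14 with upper quartile scaling, -0.19 with library size alone, 0.17 with no filter, and -0.23 and -0.27 on log2(FPKM + 1) and log2(FPKM + 0.1). The share of called genes that were higher was 63.7% and fell to 42.5 and 43.7% in these 2 limma fits and 46.0% with no filter on FPKM. The control libraries held 53 to 116 counts of Nfkbie, 62 to 103 of Nfkbiz and 65 to 141 of Bcl3, the lowest of the members.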
